A study of Arabidopsis thaliana with 12 samples.

Results

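The genes described here are those encoded in the mitochondrial genome of Arabidopsis thaliana, taken as the rows whose identifier begins with ATMG after the mitochondrial rRNA rows were set aside. The table holds 143 such rows among 33610 genes, and 141 of them reached an FPKM of 1 (reads scaled to gene length and library depth) in at least 3 of the 12 libraries, among 20715 genes that did. They comprise 14 rows of respiratory complex I, 1 of complex III, 3 of complex IV, 6 of complex V, 5 of cytochrome c maturation, 7 of ribosomal proteins, 2 other named proteins, 19 rows under 100 bases long whose length is that of transfer RNA, and 84 open reading frames, most of which have no described product.

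The plants were Columbia-0 (Col-0) wild type (WT) and the T-DNA insertion mutant bzip17, which is 1 allele disrupting the membrane-anchored transcription factor gene bZIP17. Flowering plants of each genotype were kept at 22 °C or moved to 38 °C for 6 h, and unopened buds of stages 1 to 12 from 8 plants made up each of 3 biological replicates per group. Each library is therefore a pool of plants and of many bud cell types, in which more mitochondria per cell, more RNA per mitochondrion and more cells of a mitochondrion-rich type cannot be told apart. The mutant label was checked on bZIP17 itself, which at 22 °C measured 31.7 to 45.1 CPM in WT and 3.50 to 5.74 CPM in bzip17 (counts scaled to depth).

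The plant mitochondrial genome is a remnant of a bacterial genome. It still encodes core subunits of the respiratory chain and the ATP synthase, part of the mitochondrial ribosome and the proteins that attach haem to cytochrome c, whereas most mitochondrial proteins are nuclear-encoded and imported. Its transcripts are made by phage-type RNA polymerases, then spliced, edited from C to U and trimmed, and in plant mitochondria the addition of a poly(A) tail marks an RNA for degradation. The sources used here do not state how messenger RNA was enriched, by its tail or by depletion of rRNA. A change in the amount of an RNA and a change in the part of it that was captured therefore cannot be told apart.

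Chromosome 2 of this species carries a large insert of mitochondrial DNA, so a mitochondrial read often has a second place to align. In the TAIR10 sequence the insert spanned chr2:3239038-3509765, and 17 aligned blocks of 2000 bases or more were 99.9% identical to the reference mitochondrial genome, of which 72.7% had a match there. The 2 stretches that follow are shown because they set how far a read can tell the 2 places apart. The first is the chromosome 2 copy of atp9 (chr2:3251856-3252080, minus strand, 225 bases), the coding sequence of the ring subunit of ATP synthase, and it differed from the mitochondrial gene at 0 bases. The second is the start of the copy of ccmFN1 (chr2:3297890-3298039, plus strand, 150 bases), a cytochrome c maturation gene whose copy differed at 1 of 1149 bases, and the capital marks that base. All other letters are shared with the mitochondrial gene.
atp9 copy: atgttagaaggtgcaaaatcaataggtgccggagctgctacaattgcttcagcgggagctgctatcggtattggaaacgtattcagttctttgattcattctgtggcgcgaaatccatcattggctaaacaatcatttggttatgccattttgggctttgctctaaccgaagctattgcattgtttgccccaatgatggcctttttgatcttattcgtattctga
ccmFN1 copy: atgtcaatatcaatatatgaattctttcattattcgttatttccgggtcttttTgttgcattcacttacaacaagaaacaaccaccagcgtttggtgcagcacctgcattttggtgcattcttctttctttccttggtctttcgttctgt

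The libraries held 38.6 to 71.8 M counts (M, 1000000) and differed in rRNA content. Reads on 15 rRNA loci took 3.76, 15.1 and 64.8% of counts in WT at 22 °C and 19.0, 3.57 and 2.80% in WT at 38 °C. In bzip17 they took 20.7, 3.22 and 1.43% at 22 °C and 2.64, 3.47 and 2.90% at 38 °C. WT replicate 3 at 22 °C stood apart from the other 11, and 4 libraries were above 10%.

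The share of counts outside rRNA that fell on the 141 members was higher after heat in every library of both genotypes. WT buds had 0.0523, 0.129 and 0.444% at 22 °C against 0.981, 1.10 and 0.627% at 38 °C. In bzip17 it was 0.101, 0.0603 and 0.0128% at 22 °C and 0.870, 1.13 and 0.548% at 38 °C. The lowest heated library thus lay above the highest control, and that control was the WT library with 64.8% rRNA. At 22 °C the member share was higher in the libraries with more rRNA within each genotype, in the same order in all 3 WT and all 3 bzip17 libraries. At 38 °C the WT library with 19.0% rRNA lay between the other 2. Whether rRNA content contributes to the member share was not tested, and the fits given with the calls cannot tell it apart from other differences between libraries.

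**Figure D1:**
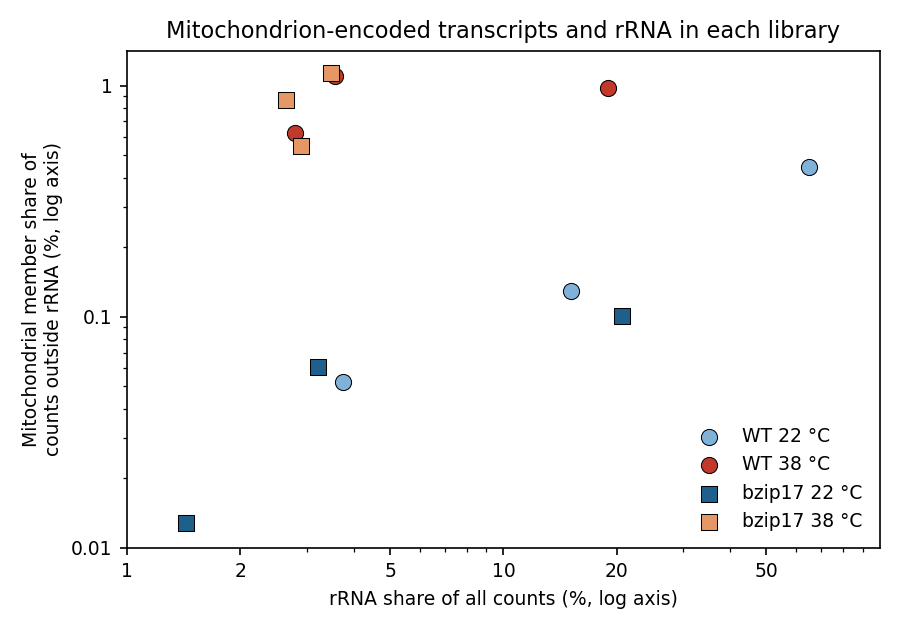
Share of counts outside rRNA on the 141 mitochondrion-encoded members (vertical log axis, %) against the rRNA share of all counts (horizontal log axis, %), with 1 point per library. The 6 heated libraries lie between 0.548 and 1.13%, and the 6 control libraries spread from 0.0128 to 0.444%. Among the heated libraries WT replicate 1 has 19.0% rRNA and the others have 2.64 to 3.57%.

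To ask which members changed with heat, the counts of all 20715 genes were fitted together with edgeR's quasi-likelihood test, and a gene was called at a Benjamini-Hochberg adjusted p under 0.05 and more than 2-fold. In WT 105 of the 141 members were higher at 38 °C and 0 lower, where 6.4% of all genes tested were called higher. In bzip17 131 were higher and 0 lower, where 6.08% of all genes were called higher. At an unadjusted p under 0.05 there were 121 members in WT and 136 in bzip17, against 39.7 and 38.7% of all genes. Among all genes 6.43 and 6.44% were called lower. The median log2 change was 3.28 in WT and 5.16 in bzip17, against 0.02 and -0.05 over all genes. With the 5 members that had 0 counts in bzip17 at 22 °C set to a bound of 3 counts over the group, the bzip17 median was 5.04. Every 38 °C library lay above every 22 °C library for 120 members in WT and 137 in bzip17, an ordering found in 22.8 and 22.1% of all genes.

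The expression limit itself favours members that rise, since 64 of the 141 passed without 3 libraries at 22 °C and 40 reached 1 FPKM in no library at 22 °C. When the limit was applied to the 22 °C libraries alone, 77 members remained, and 55 of these were called higher in WT and 72 in bzip17, with medians of 2.87 and 4.68. All 24 rows of the 4 respiratory complexes passed that stricter limit. The members at the edge were ATMG00390 and ATMG00910, which passed in 3 libraries with at most 2.37 and 2.59 FPKM, and the 2 rows outside it were ATMG00050, at most 0.854 FPKM, and ATMG01070, at most 0.163 FPKM.

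The WT calls depended on the control libraries. Leaving out WT 22 °C replicate 2 reduced the calls from 105 to 65, and all 65 were among the 105. Leaving out the 4 libraries above 10% rRNA, which left 1 WT control, gave 28 calls in WT with a larger median of 5.47, and 116 calls in bzip17 with a median of 5.37. In that fit 0 of the 141 log2 changes were below 0 in either genotype. A fit with the rRNA share as a covariate called 120 members in WT and 134 in bzip17.

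**Figure D2:**
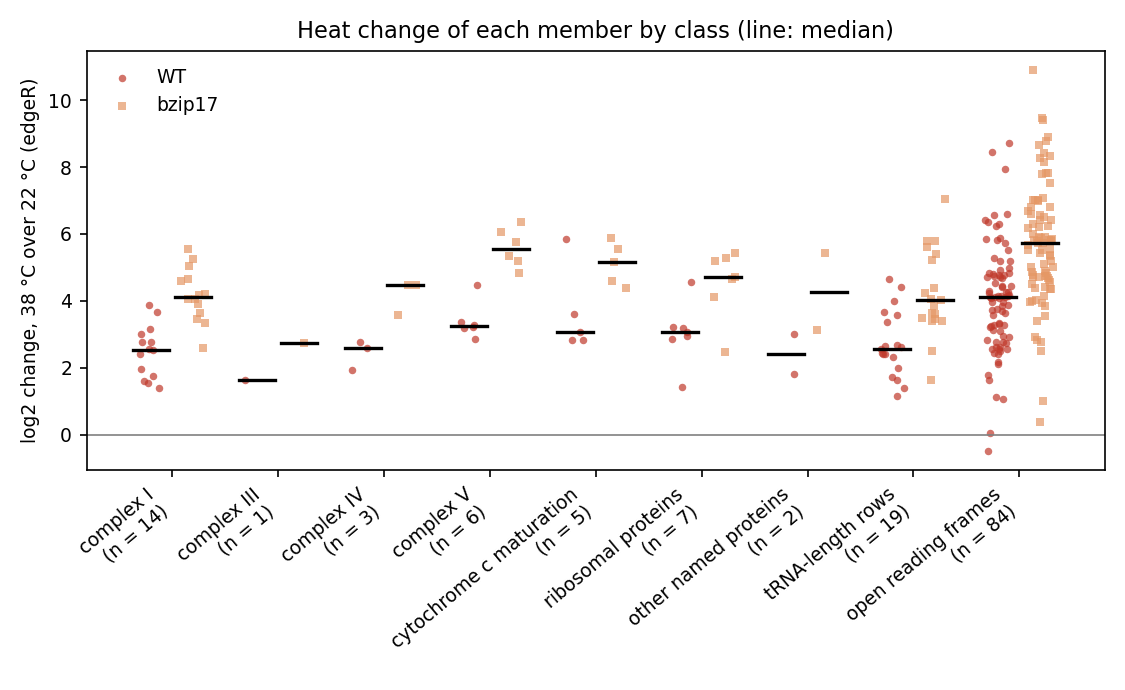
log2 change at 38 °C over 22 °C (vertical axis, edgeR) of each member in WT (circles) and bzip17 (squares), by class, with the class median as a line and the number of members under each class. Class medians run from 1.63 to 4.10 in WT and from 2.75 to 5.74 in bzip17, and the open reading frames have the widest spread.

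Complex I, the NADH dehydrogenase that feeds electrons into the chain, had all 14 rows called higher in bzip17 and 7 of 14 in WT, with medians of 4.13 and 2.55. The member with the largest average rise was nad4L, a small membrane subunit. Its CPM (counts scaled by library total with TMM factors) were 2.28, 6.70 and 14.96 in WT at 22 °C and 95.3, 122 and 79.7 at 38 °C. In bzip17 they were 3.39, 2.71 and 0.390 at 22 °C and 102, 136 and 57.6 at 38 °C. Heated and control libraries did not overlap in either genotype. The log2 change was 3.68 ± 0.73 (SE) in WT with an edgeR adjusted p of 0.00421 and 5.54 ± 0.80 in bzip17 with 0.000547.

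The complex I member with the smallest average rise was nad3, another membrane subunit. It measured 8.69, 28.7 and 21.9 CPM in WT at 22 °C and 49.4, 75.4 and 48.8 CPM at 38 °C, and 8.27, 17.4 and 1.76 against 47.3, 79.1 and 37.0 CPM in bzip17. The groups did not overlap, but the WT change of 1.55 ± 0.64 had an adjusted p of 0.0910, and the bzip17 change was 2.58 ± 0.66 with 0.0137. The bzip17 call for nad3 was lost without bzip17 38 °C replicate 2, at an adjusted p of 0.0516, and without the libraries above 10% rRNA, at 0.0848. nad7, a subunit of the peripheral arm, changed by 1.96 ± 0.60 in WT with 0.0323 and by 3.91 ± 0.65 in bzip17 with 0.00125, and its WT call was lost without any of 5 WT libraries, all except 22 °C replicate 3, at adjusted p of 0.0521 to 0.116. With the counts of its chromosome 2 copy added, nad7 was called in neither genotype, at 0.30 ± 0.55 with 0.718 and 1.45 ± 0.56 with 0.0752.

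The complex I subunits nad1, nad2 and nad5 are assembled by trans-splicing of separately transcribed exons, and the exon parts are separate rows. For nad1 the log2 changes in WT were 3.88, 2.77 and 3.16 for parts A, B and C, and in bzip17 5.27, 4.06 and 4.6, and the WT call of part B was lost without any of 4 WT libraries at adjusted p of 0.0521 to 0.0944. For nad5 they were 2.56, 3.03 and 2.41 in WT and 4.05, 5.03 and 4.19 in bzip17. The chromosome 2 copy row of nad5-A, AT2G07711, held 95.4% of the counts of the pair at 22 °C and 73.7% at 38 °C. That copy row changed by 0.08 in WT and 1.38 in bzip17, with edgeR adjusted p of 0.928 and 0.0665. How reads were divided between the 2 rows is not known, so the values of nad5-A alone are uncertain. The nad2 parts A and B gave 1.75 and 2.53 in WT, where neither was called, and 3.47 and 3.63 in bzip17, where both were, although leaving out single bzip17 libraries ended these calls at adjusted p of 0.0561 to 0.0916. nad5-B is annotated as only 22 bases.

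Complex III is represented by cob, the cytochrome b apoprotein. It measured 2.09, 6.39 and 26.1 CPM in WT at 22 °C and 38.1, 43.1 and 22.9 CPM at 38 °C, so that 1 control exceeded a heated library. The change of 1.63 ± 0.90 in WT had an adjusted p of 0.201. In bzip17 it measured 10.8, 2.71 and 0.665 against 31.7, 40.4 and 21.6 CPM, and the change of 2.75 ± 0.94 had an adjusted p of 0.0479. That call was lost without any of 5 bzip17 libraries, all except 22 °C replicate 1, at adjusted p of 0.0662 to 0.128.

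Complex IV, cytochrome c oxidase, had its 3 subunits called higher in bzip17 and 2 of 3 in WT. cox1, the catalytic subunit, measured 6.28, 25.8 and 96.6 CPM in WT at 22 °C and 235, 366 and 171 CPM at 38 °C. In bzip17 it measured 18.9, 10.4 and 2.17 against 215, 339 and 141 CPM, with no overlap in either genotype. The changes were 2.60 ± 0.88 in WT (adjusted p 0.0471) and 4.47 ± 0.96 in bzip17 (0.00545). The WT call was lost without any of 5 WT libraries, all except 22 °C replicate 3, at 0.0641 to 0.146. cox2, which receives electrons from cytochrome c, changed by 2.76 ± 0.84 in WT with 0.0306 and by 4.47 ± 0.90 in bzip17 with 0.00394, and its WT call was lost without any of 4 WT libraries at 0.0593 to 0.103. cox3 changed by 1.94 ± 0.99 in WT with an adjusted p of 0.165 and by 3.57 ± 1.05 in bzip17 with 0.0261, and the bzip17 call was lost without any of 4 bzip17 libraries at 0.0525 to 0.0744.

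Complex V, the ATP synthase, had 5 of 6 rows called higher in WT and 6 of 6 in bzip17, with medians of 3.26 and 5.56. atp6-2, 1 of 2 genes for the proton channel subunit a, measured 3.998, 12.5 and 17.6 CPM in WT at 22 °C and 292, 285 and 168 CPM at 38 °C. In bzip17 it measured 3.61, 5.59 and 0.954 against 294, 367 and 167 CPM. The lowest heated library of each genotype was far above its highest control. The change was 4.47 ± 0.66 in WT with an adjusted p of 0.000807 and 6.36 ± 0.73 in bzip17 with 0.000129. The second copy, atp6-1, changed by 3.20 ± 1.01 in WT with 0.0364 and by 5.76 ± 1.14 in bzip17 with 0.00354, and its WT call was lost without any of 4 WT libraries at 0.0523 to 0.121. Reads from the shared part of the 2 genes may be divided between them by the counting, so the difference between them is uncertain.

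atp9 had the highest FPKM of the class, 362 on average over the 12 libraries. It measured 4.72, 27.6 and 66.1 CPM in WT at 22 °C and 363, 382 and 267 CPM at 38 °C, and 14.2, 8.95 and 2.86 against 366, 428 and 149 CPM in bzip17. The changes were 3.37 ± 0.81 with an adjusted p of 0.0106 and 5.19 ± 0.88 with 0.00144. atp1, the catalytic-head subunit alpha, measured 9.48, 16.4 and 126 CPM in WT at 22 °C and 424, 732 and 263 CPM at 38 °C. It changed by 3.23 ± 0.87 with 0.0186 in WT and by 6.05 ± 1.00 with 0.00122 in bzip17, and the WT call was lost without WT 22 °C replicate 2 (0.0657) or WT 38 °C replicate 2 (0.0514). atp8 was the row not called in WT, at 2.86 ± 1.10 with 0.0740.

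**Figure D3:**
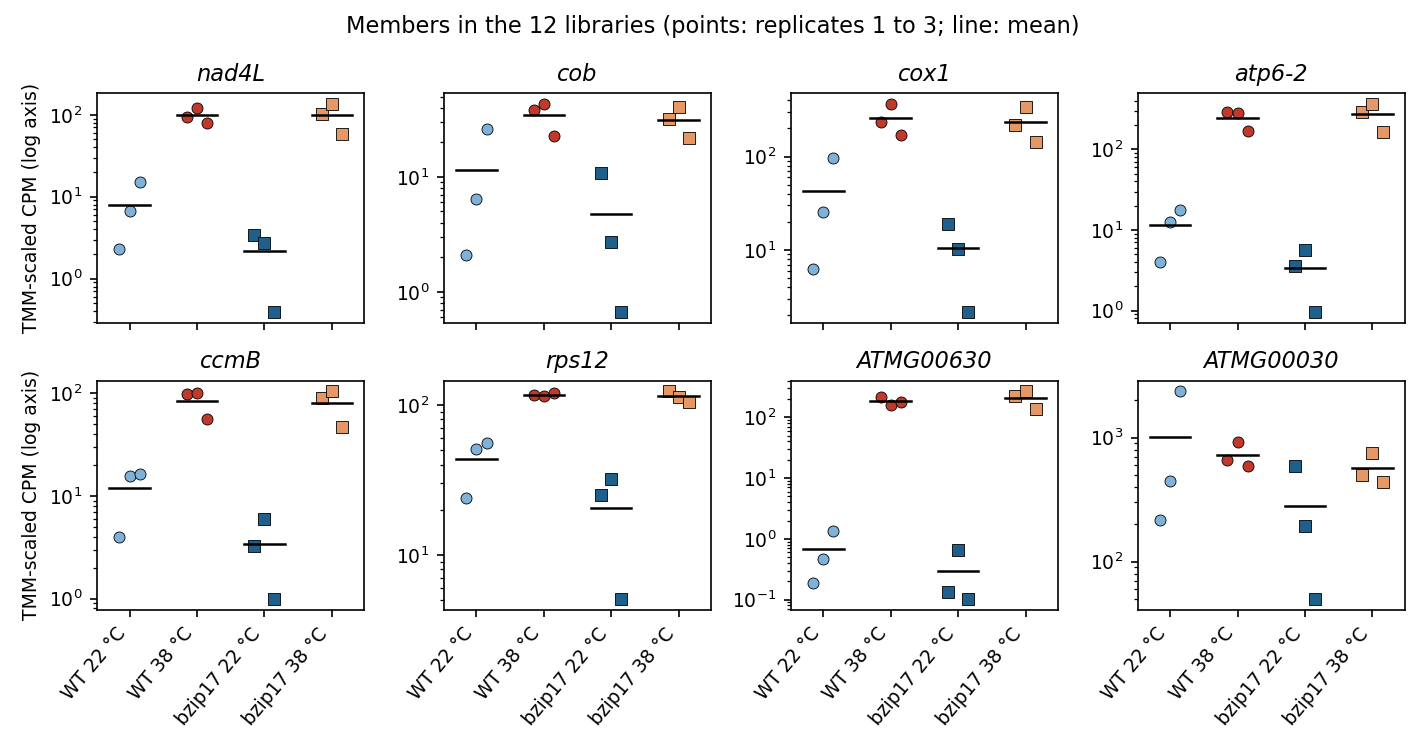
TMM-scaled CPM (vertical log axes) of 8 members in the 12 libraries, with a point per replicate and a line at each group mean. The heated libraries lie above the controls of their genotype for nad4L, cox1, atp6-2, ccmB, rps12 and ATMG00630, whereas the WT groups overlap for cob and ATMG00030.

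The 5 genes of cytochrome c maturation, whose products carry and attach haem, were all called higher in both genotypes, with medians of 3.08 and 5.16. However, 2 of the 5 had passed the expression limit without 3 libraries at 22 °C. With the limit at 22 °C alone 3 of 3 were called in both genotypes, with medians of 2.87 and 4.62. ccmB, a membrane component of the haem export machinery, measured 3.98, 15.8 and 16.3 CPM in WT at 22 °C and 98.7, 99.7 and 56.1 CPM at 38 °C. It measured 3.29, 5.95 and 0.983 against 90.2, 105 and 47.5 CPM in bzip17. The changes were 2.83 ± 0.63 with an adjusted p of 0.00722 and 4.58 ± 0.68 with 0.000644. ccmC had the largest change of the class in WT, 5.86 ± 1.17 with 0.00431, from 0.0944, 0.237 and 0.650 CPM to 14.6, 18.6 and 13.7 CPM. In bzip17 its heated libraries were unlike each other, at 2.52, 14.4 and 0.911 CPM. The chromosome 2 copy row AT2G07771, identical to ccmC, held 91.5, 73.6 and 97.8% of the counts of the pair in these libraries. Over both genotypes it held 84.4% at 22 °C and 74.4% at 38 °C, and it changed by 3.44 in WT and 6.02 in bzip17. How reads were divided between the 2 rows is not known, so the values of ccmC alone are uncertain. ccmFC, part of the haem lyase, changed by 2.85 ± 0.77 with 0.0183 and by 4.38 ± 0.82 with 0.00258, and its WT call was lost without WT 22 °C replicate 1 (0.0562) or replicate 2 (0.0583).

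Of the 7 ribosomal protein genes 6 were called in WT and 7 in bzip17. rps7, a protein of the small subunit, had the largest average change, from 0.740, 1.16 and 3.12 CPM to 29.3, 56.2 and 23.1 CPM in WT and from 1.02, 0.974 and 0.0868 to 32.2, 35.3 and 18.4 CPM in bzip17. The changes were 4.56 ± 0.75 with an adjusted p of 0.00147 and 5.42 ± 0.78 with 0.000518. rpl16, a protein of the large subunit, had the highest FPKM of the class and changed by 3.19 ± 0.80 with 0.0132 and by 5.20 ± 0.88 with 0.00141, and its WT call was lost without WT 22 °C replicate 2 (0.0567). rpl16 and rps3 overlap in the table, so reads of the overlap cannot be assigned to either.

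rps12, another protein of the small subunit, had the smallest change of the class. It measured 23.8, 50.5 and 55.9 CPM in WT at 22 °C and 117, 114 and 120 CPM at 38 °C, and 25.1, 31.9 and 5.06 against 124, 113 and 105 CPM in bzip17. The heated libraries lay within a narrow range in both genotypes, and the spread was among the controls. The change of 1.44 ± 0.50 in WT had an adjusted p of 0.0505 and that of 2.47 ± 0.51 in bzip17 0.00463.

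Neighbouring members had close values. rps12 and nad3 lie 45 bases apart on the same strand (ChrM positions 260224 to 260601 and 260647 to 261006 in the deposited table) and are known to share a transcript. Their log2 changes differed by 0.12 in WT and by 0.11 in bzip17, and averaged over the genotypes they had the smallest changes of their classes. atp4 and nad4L, 266 bases apart, differed by 0.40 and 0.19. Over the 33 pairs of adjacent members on the same strand within 500 bases the median absolute difference was 0.59 in WT and 0.58 in bzip17, and over all 9870 pairs of members it was 1.36 and 1.48. These 2 named pairs were chosen after their values were seen, and neighbours can also share reads that span both.

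The 2 other named proteins were mttB, a component of a protein export pathway, and matR, a maturase encoded inside a nad1 intron. mttB rose by 3.00 ± 0.78 in WT with an adjusted p of 0.0156 and by 5.43 ± 0.88 in bzip17 with 0.00110, and its WT call was lost without WT 22 °C replicate 1 (0.0546) or replicate 2 (0.0522). matR measured 6.04, 19.1 and 52.2 CPM against 118, 118 and 31.0 CPM in WT, where the groups overlapped and the change was 1.81 ± 0.89 with 0.150. In bzip17 it changed by 3.13 ± 0.93 with 0.0274, a call lost without any of 3 bzip17 libraries at 0.0552 to 0.0790 and without the libraries above 10% rRNA at 0.0996.

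Transfer RNAs bring amino acids to the ribosome. Of the 19 rows of that length, 7 were called higher in WT and 15 in bzip17, but 13 of the 19 had passed the expression limit without 3 libraries at 22 °C. With the limit at 22 °C alone 2 of 6 were called in WT and 5 of 6 in bzip17. ATMG00190 measured 0.173, 0.166 and 0.130 CPM in WT at 22 °C and 2.10, 2.62 and 1.51 CPM at 38 °C, and 0.0539, 0.104 and 0 against 2.72, 2.60 and 1.12 CPM in bzip17. The changes were 3.67 ± 0.75 with an adjusted p of 0.00482 and 5.39 ± 0.83 with 0.000818. ATMG01340 had the smallest average change, 1.16 ± 1.12 in WT and 1.64 ± 1.06 in bzip17, with adjusted p of 0.474 and 0.282.

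The 84 open reading frames included the members with the largest and the smallest changes. In WT 72 and in bzip17 78 were called higher, with medians of 4.10 and 5.74, but 49 of the 84 had passed the limit without 3 libraries at 22 °C. With the limit at 22 °C alone 26 of 35 were called in WT and 31 of 35 in bzip17, with medians of 3.29 and 5.13. ATMG00630, an open reading frame of 333 bases, was near the floor at 22 °C, with 0.189, 0.473 and 1.37 CPM in WT and 0.135, 0.663 and 0.101 CPM in bzip17. At 38 °C it measured 220, 159 and 179 CPM in WT and 224, 270 and 137 CPM in bzip17, and it was among the 3 open reading frames with the highest average FPKM. The changes were 8.46 ± 0.73 with an adjusted p of 4.27e-05 and 9.47 ± 0.75 with 1.68e-05.

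ATMG01140, of 459 bases, had 8 counts in the 3 WT control libraries together and 2571 in the heated ones, and in bzip17 1 count against 3563. The scaled ratio in bzip17 was 2754, with a 95% exact interval of 494 to 108818 that covers counting error alone. The fitted log2 change was 7.93 ± 0.67 in WT and 10.91 ± 0.81 in bzip17, with adjusted p of 3.91e-05 and 1.16e-05, and the size in bzip17 depends on the prior count added in the fit. ATMG01140 had passed the expression limit without 3 libraries at 22 °C, so its test is not independent of that limit. ATMG00590, of 942 bases and annotated as a cytochrome b/b6 protein, had the smallest p in bzip17, 8.72e-09 unadjusted. It measured 2.49, 3.29 and 4.23 CPM in WT at 22 °C and 115, 70.5 and 66.2 CPM at 38 °C, and it changed by 4.68 ± 0.41 in WT with an adjusted p of 4.27e-05 and by 6.19 ± 0.44 in bzip17 with 9.04e-06.

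ATMG00030 had the highest FPKM of the members, 1677 on average, and was called in neither genotype. It measured 217, 443 and 2382 CPM in WT at 22 °C and 660, 922 and 587 CPM at 38 °C, and 592, 194 and 49.6 against 502, 756 and 439 CPM in bzip17. The groups overlapped in both genotypes. The change was -0.49 ± 0.85 in WT with an adjusted p of 0.706 and 1.02 ± 0.85 in bzip17 with 0.410, and in WT its sign turned to positive without WT 22 °C replicate 3, at 1.12, and under 4 other settings.

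This open reading frame of 324 bases lies 502 bases from rrn26, the large-subunit rRNA gene, on the other strand (ChrM 11918 to 12241, rrn26 at 8848 to 11415). rrn26 measured 1520, 4313 and 27717 CPM in WT at 22 °C, high in the same replicate as ATMG00030. There were 8.59 to 15.9 counts on ATMG00030 per 100 on rrn26 in the 6 control libraries and 13.2 to 25.7 in the heated ones. rrn26 is 2568 bases long in the deposited table and 3169 in the reference annotation, which leaves part of the longer gene model outside the row that was set aside. Whether the ATMG00030 counts are rRNA was not tested. ATMG01370, which lies 9 bases from rrn5, measured 12.6, 49.7 and 42.5 CPM in WT at 22 °C and 191, 228 and 173 CPM at 38 °C. It rose by 2.50 ± 0.56 in WT with an adjusted p of 0.00736 and by 4.35 ± 0.61 in bzip17 with 0.000437. ATMG00530 had the smallest average change of the class, at 0.05 ± 0.65 in WT and 0.38 ± 0.65 in bzip17, with adjusted p of 0.962 and 0.709, and its sign turned in WT without 1 of 2 libraries.

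Because ATMG00030 took 35.5 to 64.0% of member counts at 22 °C and 6.82 to 11.2% at 38 °C, it set much of the division among classes. Open reading frames together took 57.3 to 74.0% of member counts at 22 °C and 43.1 to 47.8% at 38 °C. Without ATMG00030 they took 24.7 to 38.1% at 22 °C and 36.9 to 41.4% at 38 °C, ranges that overlapped and in which the share was not lower at 38 °C. Complex V took 4.15 to 8.92% of member counts at 22 °C and 17.9 to 20.3% at 38 °C, with no overlap, and 10.4 to 19.9% against 20.1 to 21.8% without ATMG00030. Complex I took 5.83 to 10.5% at 22 °C and 7.31 to 9.15% at 38 °C, and without ATMG00030 13.4 to 16.3% and 8.24 to 10.1%, so that its share was then lower in every heated library. These shares are described with no test, and without ATMG00030 the member share of counts outside rRNA was 0.00676 to 0.174% at 22 °C and 0.496 to 1.04% at 38 °C.

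Mitochondrial rRNA was called in neither genotype for its 2 long species. rrn26 changed by -1.43 ± 0.99 in WT with an adjusted p of 0.311 and by 0.54 ± 0.98 in bzip17 with 0.730, and rrn18, the small-subunit rRNA, by -0.84 ± 0.92 with 0.537 and 1.24 ± 0.93 with 0.358. rrn5 changed by 1.56 ± 0.66 with 0.0982 in WT and rose by 3.25 ± 0.70 with 0.00558 in bzip17. There were 7.51 to 33.8 mitochondrial rRNA counts per count on the other 140 members at 22 °C and 0.918 to 1.59 at 38 °C, so heated and control libraries did not overlap. How rRNA was depleted, if it was, cannot be told from the counts, so the ratio describes these libraries and not the cell.

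**Figure D4:**
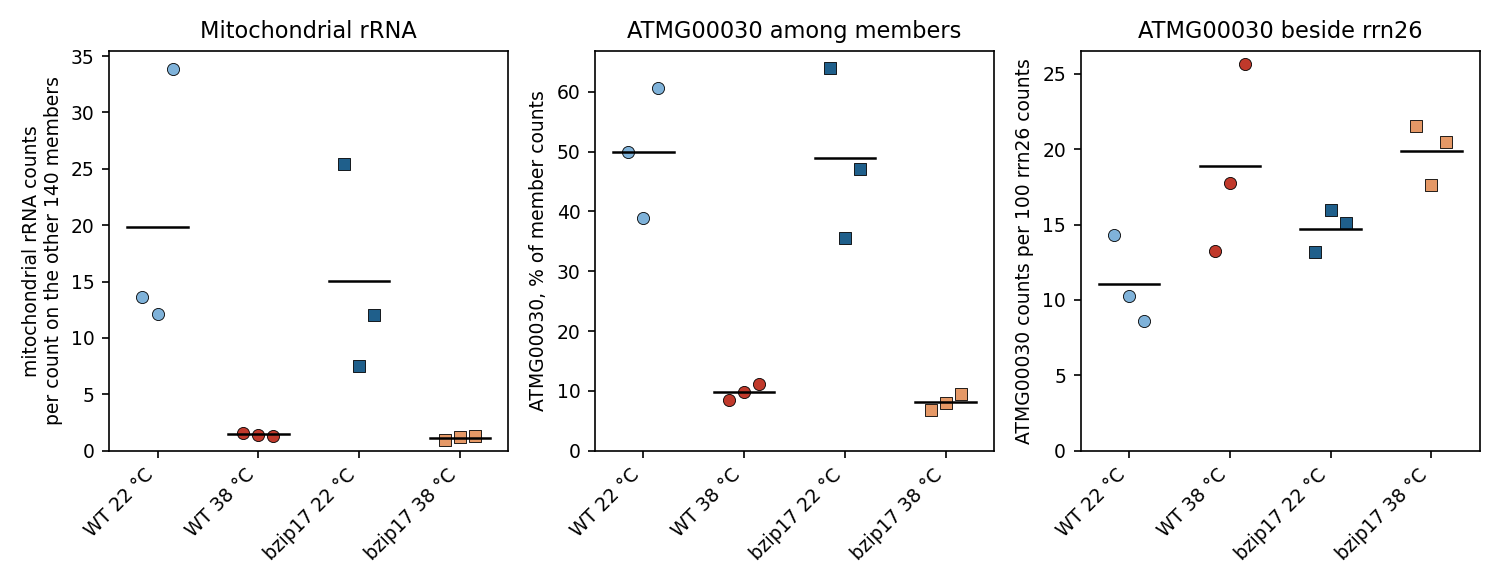
Mitochondrial rRNA counts per count on the other 140 members (left), ATMG00030 as a percentage of member counts (middle) and ATMG00030 counts per 100 rrn26 counts (right), with a point per replicate, a line at each group mean and axes from 0. The first 2 measures separate 22 °C from 38 °C, at 7.51 to 33.8 against 0.918 to 1.59 and at 35.5 to 64.0% against 6.82 to 11.2%, whereas the third overlaps.

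Members with and without a copy on chromosome 2 were set side by side. Of 38 members with a gene name the 2 atp6 genes were not compared, since the reference names do not tell them apart, and of the other 36 members 24 had at least 90% of their length on chromosome 2 and 9 had less than 25%, namely cox1, cox2, atp4, ccmB, nad4L, nad9, rps3 and the exon parts nad1-B and nad5-C. Another 2 were partly copied, and nad5-B was too short to align. The 9 without a copy had 7 calls in WT and 9 in bzip17 with medians of 2.77 and 4.47, and the 24 with a copy had 14 and 24 with medians of 2.86 and 4.64. All 9 without a copy had heated libraries above the controls in both genotypes, an ordering found in 22.8 and 22.1% of all genes. The part of read sharing in the member changes was not tested.

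All 129 table rows inside the insert matched the reference mitochondrial genome over 90% or more of their length. Of the 125 past the expression limit 87 were called higher in WT and 114 in bzip17, with medians of 3.45 and 5.38. Among all genes 6.4 and 6.08% were called higher. The same expression limit, which favours rows that rise, was applied to these rows. Reads from identical stretches cannot be assigned to 1 place by sequence. For atp9 the copy row AT2G07671 held 39.8% of the counts of the pair at 22 °C and 43.0% at 38 °C. For nad7 the copy row AT2G07709 differs at 6 bases and held 98.6% at 22 °C and 92.9% at 38 °C, and it changed by 0.25 in WT and 1.34 in bzip17, with adjusted p of 0.776 and 0.104. For rps7 the copy row AT2G07696 held 54.4% at 22 °C and 16.9% at 38 °C and changed by -0.05 in WT with an adjusted p of 0.988 and by 4.15 in bzip17 with 0.152, against 4.56 and 5.42 for the member. The counts of the 21 matched copy rows, except those of nad2-A and matR, were then added to their members. In that fit 105 members were called in WT and 130 in bzip17.

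**Figure D5:**
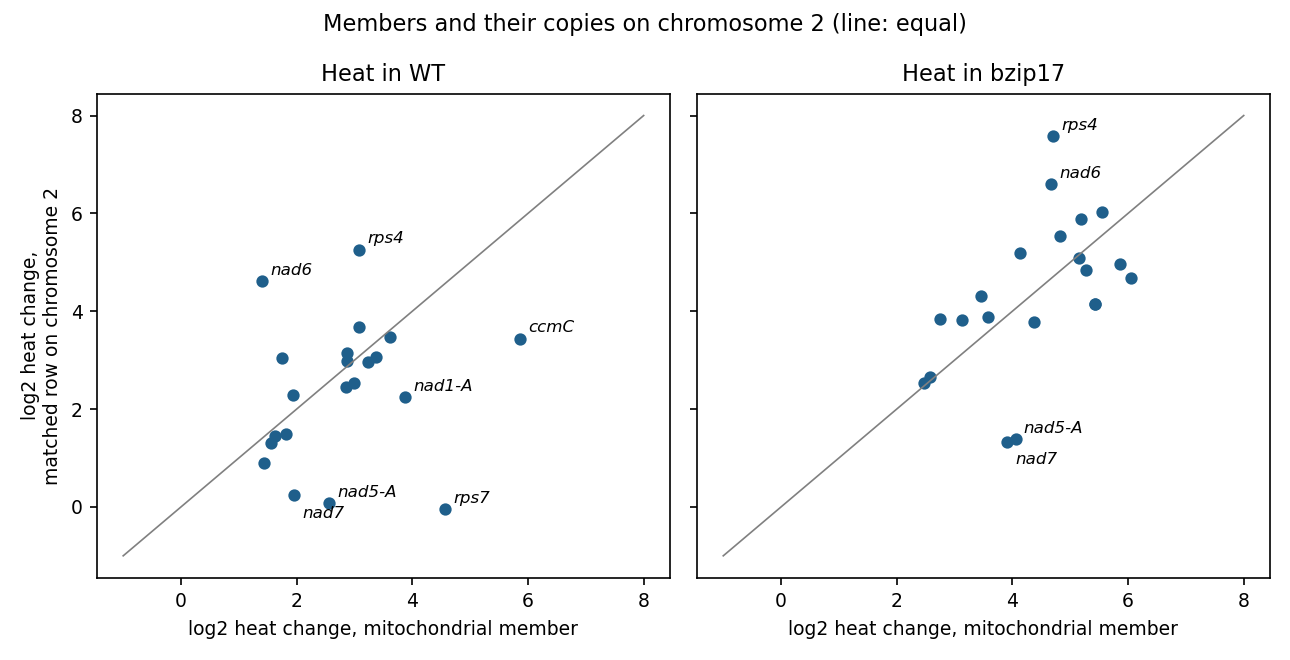
log2 heat change of 21 mitochondrial members (horizontal axis) and of the matched rows on chromosome 2 (vertical axis) in WT (left) and bzip17 (right), with the line of equal change and names for pairs that differ by more than 1.6. The copy rows of rps7, nad7 and nad5-A lie below the line in both genotypes, at -0.05, 0.25 and 0.08 in WT, and those of nad6 and rps4 lie above it in both.

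To ask whether the mutation changed these transcripts, bzip17 was compared with WT at each temperature. At 22 °C 0 of 141 members were called by edgeR, where 0.00965% of all genes were called, and 48 had an unadjusted p under 0.05, against 9.79% of all genes. The median log2 difference was -1.74, and 133 of 141 values were below 0. DESeq2 called 3 members lower, the open reading frames ATMG00400, ATMG00550 and ATMG00590, with adjusted p of 0.0377, 0.0307 and 0.0463, where it called 0.323% of all genes. The member with the smallest p was ATMG00550, at 0.0630, 0.355 and 0.585 CPM in WT and 0, 0.0207 and 0 CPM in bzip17, with an adjusted p of 0.349. atp1 measured 9.48, 16.4 and 126 CPM in WT and 6.55, 11.3 and 2.65 CPM in bzip17, and the difference of -2.89 ± 0.87 had an adjusted p of 0.422.

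The rRNA share also differed between libraries at 22 °C, and its part in the member difference was not tested. With 3 libraries per group the fits given next cannot tell rRNA share apart from other differences between libraries. Of the 3 WT controls 2 and 1 of the 3 bzip17 controls were above 10% rRNA, and the median difference was -0.89 without WT 22 °C replicate 3, -0.62 with the rRNA share as a covariate and 0.00 without the libraries above 10%, a fit in which WT at 22 °C was 1 library assumed to vary like the other groups. Other lists also had medians away from 0 at 22 °C, without a call by edgeR. The median of 111 plastid-encoded genes was -1.41, with 107 below 0. An unadjusted p under 0.05 was found for 10 of the 111, where 9.79% of all genes had one. The median of 6 late pollen markers was -1.28, with 4 below 0, 2 above 0 and 4 at an unadjusted p under 0.05. That of 8 tapetum markers was 0.98, with 8 above 0 and 4 at an unadjusted p under 0.05. Their part in the member difference was not tested. At 38 °C 0 members were called by edgeR, where 0.0145% of all genes were, and 0 by DESeq2, where 0.179% were. By edgeR 0 had an unadjusted p under 0.05, where 4.43% of all genes did, and the median was 0.04. nad4L measured 95.3, 122 and 79.7 CPM in WT and 102, 136 and 57.6 CPM in bzip17, a difference of -0.01 ± 0.65. With an SE of that size a 2-fold difference was not detectable.

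The larger heat change in bzip17 was tested as an interaction. The median difference of log2 changes, bzip17 minus WT, was 1.72, and 132 of 141 were above 0. By edgeR 0 members passed an adjusted p of 0.05, where 0% of all genes did, DESeq2 called 0, where 0.029% of all genes were called, and 22 had an edgeR unadjusted p under 0.05 where 4.32% of all genes did. The median was 0.83 without WT 22 °C replicate 3 and -0.06 without the libraries above 10% rRNA, again with 1 WT library at 22 °C. The heat changes of the 2 genotypes were therefore not shown to differ. ATMG00890 was 1 of the 9 with a smaller change in bzip17, at 3.85 ± 1.30 with an adjusted p of 0.0465 against 5.75 ± 1.47 in WT with 0.0144. Its bzip17 libraries at 38 °C measured 0.133, 2.75 and 0.114 CPM, and without bzip17 38 °C replicate 2 the change was 0.85 with an adjusted p of 0.590. With the replicate number as a block the bzip17 change was 2.88 with 0.0946.

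Nuclear genes that work with the members were set beside them. Of 45 nuclear genes for respiratory subunits, cytochrome c and assembly, 1 was called higher in WT. In bzip17 1 of them was called higher and 1 lower, and the medians were -0.12 in WT and -0.11 in bzip17. Among all genes 6.4% were called higher and 6.43% lower in WT, and 6.08 and 6.44% in bzip17. CYTC-2, a cytochrome c gene, was called higher in both, at 20.1, 19.0 and 14.2 CPM against 44.5, 73.2 and 39.3 CPM in WT, a change of 1.55 ± 0.32 with an adjusted p of 0.00515. SDH2-1, an iron-sulfur subunit of complex II, fell by 2.51 in bzip17 (SE 0.69, adjusted p 0.0196). COX6B, a subunit of complex IV, changed by -0.66 ± 0.13 with 0.00401 in WT, under the 2-fold limit. Of 29 nuclear genes of the mitochondrial RNA and DNA machinery 0 were called in WT or bzip17 by edgeR. An unadjusted p under 0.05 was found for 8 in each, against 39.7 and 38.7% of all genes. The medians over the 29 were 0.29 and 0.24. Among them AT5G15700, a phage-type RNA polymerase found in both organelles, changed by 0.66 ± 0.18 with 0.0188 in WT and by 0.46 ± 0.18 with 0.0768 in bzip17.

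Of 20 genes for mitochondrial chaperones, proteases and the response to mitochondrial dysfunction, 10 were called higher in WT and 12 in bzip17, and 0 lower. Among all genes 6.4 and 6.08% were called higher in WT and bzip17, and 6.43 and 6.44% lower. The mitochondrial small heat shock protein gene HSP23.6-MITO measured 1.495, 0.923 and 0 CPM in WT at 22 °C and 225, 809 and 259 CPM at 38 °C. It rose by 8.83 ± 0.88 in WT with an adjusted p of 9.35e-05 and by 10.39 ± 0.95 in bzip17 with 3.58e-05. The plastid genome, as the other organelle, gave 4 higher and 1 lower of 111 in WT and 5 higher and 1 lower in bzip17, with medians of -0.62 and -0.30. The higher ones were ATCG00080, ATCG00090, ATCG00100 and ATCG00110 in both and ATCG00220 in bzip17, and the lower one was ATCG00190. The plastid share of counts outside rRNA was 0.0169 to 0.487% at 22 °C and 0.0358 to 0.215% at 38 °C, and the groups overlapped.

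The flower identity markers were present, and 0 of 6 were called in either heat comparison by edgeR, with 1 in WT and 2 in bzip17 at an unadjusted p under 0.05. Among all genes 39.7% in WT and 38.7% in bzip17 had such a p, and 6.43 and 6.44% were called lower. Of 8 markers of the tapetum, the mitochondrion-rich nurse layer of the anther, 0 were called in either, 0 had an unadjusted p under 0.05, and their summed level was 84.9 to 391 CPM (of counts outside rRNA) at 22 °C and 118 to 310 at 38 °C. Of 6 late pollen markers 3 were lower in WT (VGD1, PTEN1 and CPK34) and 0 in bzip17 by edgeR, where 0 had an unadjusted p under 0.05, with summed levels of 1043 to 1516 in WT at 22 °C, 479 to 1090 in WT at 38 °C, 576 to 975 in bzip17 at 22 °C and 412 to 1167 in bzip17 at 38 °C. The part of cell composition in the member changes was not tested.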

How the data were processed

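RNA of 12 bud libraries was measured. Per the labels and the study's methods, the authors extracted total RNA with TRIzol, sequenced on an Illumina NovaSeq, trimmed with cutadapt, aligned to TAIR10 with HISAT2 and assembled with StringTie; versions and the handling of reads with several alignments, strand and library type are not stated in those sources. The deposited table gives the authors' count per gene and library and the authors' FPKM, in which a small placeholder stands for 0. FPKM set the expression limit and compared levels between genes. Tests used the deposited counts.

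Genes at 1 FPKM or above in 3 or more libraries were fitted with edgeR 4.0.16 (R 4.3.3), TMM scaling, 4 group means and glmQLFTest, with Benjamini-Hochberg adjustment over 20715 genes. Each SE was obtained from the log2 change and the F statistic as |log2| over the root of F. DESeq2 1.42.0 was an alternative. Members, classes and gene lists were chosen with earlier results of these data known. Named members of each class had the highest FPKM, the smallest p in a comparison, or the largest or smallest heat change. Overlapping rows and chromosome 2 copies share reads.

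Chromosome 2 was compared with the mitochondrial genome of the RefSeq assembly TAIR10.1 by BLAST 2.17.0, at 99% identity or more. That mitochondrial sequence has other coordinates than the deposited table, so ChrM positions are those of the table. On chromosome 2, 2415 of 4612 genes with the same identifier shared a strand and a start or end between table and reference. Deviations of same-numbered replicates correlated at 0.148, 0.185 and 0.219 for heat in bzip17, all over 0.1, and at -0.26 to 0.242 for the other comparisons. The labels name no shared batch. Replicates differed beyond counting error, at 78.7 to 2105 times the chi-square that counting alone gives. On simulated counts for 20715 genes, 4-fold changes were called for 82% of changed genes for heat in WT, 76% for heat in bzip17 and 60% for the interaction, and 2-fold changes for 19, 23 and 3%. The changed genes were drawn at random from all genes tested, so these shares do not give the detection rate among the members. Python 3.11.15, pandas 2.3.3 and matplotlib 3.10.9 were used.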

Additional observations from a re-analysis of the deposited data

How the results depend on the processing

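The median heat change of the members was above 0 in both genotypes under all alternatives run. In WT 105 members were called, 28 without the libraries above 10% rRNA, 55 of 77 with the limit at 22 °C alone, 65 to 112 when 1 WT library was left out (65 to 113 over all 12 libraries), and 96 to 125 under the other settings. In bzip17 131 were called, 72 of 77 with the limit at 22 °C alone, 110 to 126 when 1 bzip17 library was left out (110 to 132 over all 12 libraries), and 116 to 134 under the other settings. At 22 °C between genotypes 0 were called by edgeR in each of its fits, with 7 to 81 at an unadjusted p under 0.05, and 3 by DESeq2. Leaving out each library in turn gave 0 to 0 calls for the genotype comparisons and the interaction. With the replicate number as a block 103 members were called in WT, 122 in bzip17 and 0 in the genotype comparisons and the interaction, and of the named members in bzip17 the block ended 1 call, that of ATMG00890, and in WT 2, those of ATMG00550 and ATMG00930.

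Of 28 named members called in WT, 22 lost the call without the libraries above 10% rRNA, where 1 WT control remained, and 14 without WT 22 °C replicate 2. The WT change of ATMG00030 turned from -0.49 to 0.56 with library totals, 1.53 with the rRNA covariate, 1.80 without the libraries above 10% rRNA, 0.32 with the block and 1.12 without WT 22 °C replicate 3. Leaving out 1 library gave ATMG00030 changes of -0.97 to 1.12 in WT. For ATMG00530 it gave -0.34 to 0.45 in WT, with -0.02 without WT 38 °C replicate 2, and -0.00995 to 1.64 in bzip17. The causes were not tested. The mean open reading frame share of member counts at 38 °C was 45%, 57.3% in FPKM and, in an alternative chosen after seeing the data, 39.6% without ATMG00030. The mean member share at 38 °C moved by less than its SD with all counts as denominator or without ATMG00030. The sum with chromosome 2 copies was also chosen after seeing the data. At 22 °C many members rest on few counts, since 5 had 0 counts in bzip17, so their fold changes are imprecise.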
